A study of Equus asinus with 12 samples.

Results

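Heat shock proteins and their DNAJ co-chaperones were examined in skeletal muscle of the Dezhou donkey (Equus asinus). The members were all loci whose gene name begins with HSPA, HSPB, HSPD, HSPE, HSPH, HSP90, DNAJA, DNAJB or DNAJC followed by a digit or the letter A, which gave 73 of the 27084 loci listed and 64 genes. Where a gene had several loci, the locus with the highest mean level was used. By name they divide into 7 small heat shock proteins, 12 HSP70 genes, 1 HSP90 gene, 2 genes of the HSP60 and HSP110 families, 4 DNAJA, 12 DNAJB and 24 DNAJC genes. The remaining 2, HSPBAP1 and HSPB11, carry the HSPB letters in their names but are not small heat shock proteins.

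RNA-seq was done on 12 libraries in 4 groups of 3. They came from longissimus dorsi, the long back muscle, and from gluteal muscle, the mass of the hip, of 24-month-old animals of the strains Sanfen and Wutou, with no treatment named in the labels. The design text counts 6 donkeys, but no label ties a library to an animal, so the 3 libraries of a group are treated as its replicates and the p-values measure only the spread between them. Levels are in FPKM, fragments per kilobase of locus scaled to the mapped fragments of the library, so levels of different genes are compared per unit of length. Reads per library are not given, and no counting error can be stated.

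Chaperones bind unfolded or aggregation-prone proteins. Small heat shock proteins hold such proteins without using ATP and are abundant in muscle, where several of them associate with the contractile apparatus and the cytoskeleton under load. HSP70 proteins fold clients in cycles of ATP hydrolysis; DNAJ proteins deliver the clients and trigger hydrolysis, HSP110 proteins and BAG proteins release the nucleotide, and HSP90 takes over part of the clients for late folding steps. Some genes of each class are expressed at all times, whereas others are switched on by the transcription factor HSF1 after heat or other protein damage.

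All 12 libraries carried the defining transcripts of skeletal muscle: skeletal actin ACTA1 was listed at 8714 to 13587 FPKM and muscle creatine kinase CKM at 5666 to 10174. Across loci, which are no independent replicates, 2 libraries correlated in log2(FPKM + 1) at 0.890 to 0.941 within groups and 0.883 to 0.942 between groups. The fast troponin TNNI2 ran from 722 to 3004 FPKM and the slow troponin TNNI1 from 19.2 to 115, so libraries differed in fibre type markers. In a bulk sample, fewer cells of a type and less RNA per cell cannot be told apart.

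A locus was tested if it reached 1 FPKM in at least 3 of the 12 libraries. This kept 12408 loci and 47 of the 64 members: 6 of 7 small heat shock proteins, 9 of 12 HSP70 genes, HSP90AB1, HSPD1, HSPH1, all 4 DNAJA, 7 of 12 DNAJB, 17 of 24 DNAJC genes and HSPBAP1. The 17 members below the filter include testis-type genes of the DNAJB class, such as DNAJB13 (at most 0.0804 FPKM), and DNAJC22 (at most 0.0131), as well as HSPB9, HSPA1L and HSPA4L. HSPB11, a subunit of intraflagellar transport, stayed between 0.524 and 0.834 FPKM. Over the 12 libraries the members together held 0.325% to 0.992% of all FPKM, the lowest share in Wutou gluteal 3 and the highest in Wutou gluteal 1. The totals behind these shares differed, from 214564 FPKM in Wutou gluteal 1 to 319767 in Wutou longissimus 2. The summed member level was highest in Sanfen longissimus 2, at 2148 FPKM against 2129 in Wutou gluteal 1.

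Expression was concentrated in few genes. Of the 64 members, 20 had a mean of at least 5 FPKM and 3 a mean of at least 100, namely HSPB1 (666), HSPA8 (354) and HSPB7 (248). The sum of the 7 small heat shock protein means was 1046 FPKM and that of the 12 HSP70 means 439, against 47.7 for the 24 DNAJC genes. DNAJA and DNAJB means summed to 34.4 and 34.2 FPKM.

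**Figure D1:**
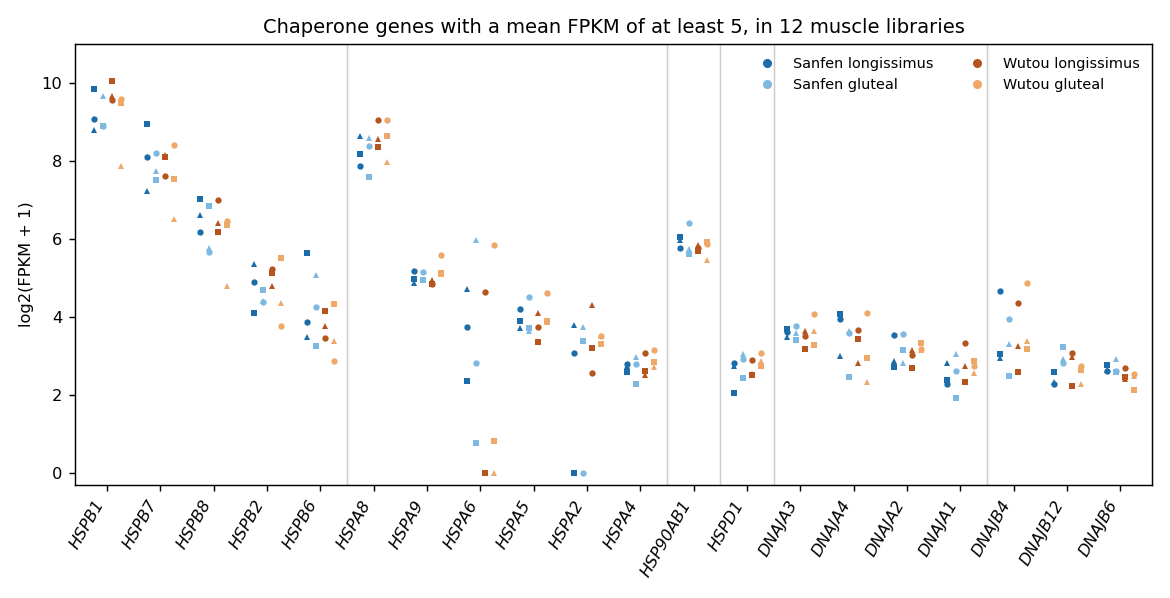
Level of the 20 members with a mean of at least 5 FPKM, as log2(FPKM + 1), with 1 point per library, colour for the group and circle, square or triangle for replicate 1, 2 or 3; vertical lines divide the classes. HSPB1, HSPB7 and HSPA8 lie highest, and HSPA6 and HSPA2 are the genes with libraries listed at 0.

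Small heat shock proteins were the most abundant class. HSPB1, also called HSP27, which binds actin filaments and unfolded proteins, was listed in longissimus muscle at 535, 919.7 and 447 FPKM for replicates 1 to 3 of Sanfen and 758, 1054 and 807 for those of Wutou. Gluteal muscle held 473, 473 and 810.2 FPKM in the Sanfen and 764, 722 and 233 in the Wutou replicates. The groups overlapped in both strains, and Wutou gluteal 3 was the lowest of the 12 libraries. HSPB7, a heart and muscle member that binds filamin C, stood in longissimus muscle at 272, 495 and 150.2 FPKM for Sanfen and 197, 276 and 283 for Wutou. In gluteal muscle its levels were 294, 181 and 214 for Sanfen and 339.7, 187 and 90.6 for Wutou. Here Sanfen longissimus 2 was the highest and Wutou gluteal 3 again the lowest library, 5.46 times apart.

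HSPB8 acts with the co-chaperone BAG3 in the removal of damaged muscle proteins by autophagy. Its longissimus libraries held 71.7, 129 and 96.8 FPKM for Sanfen and 127, 72.4 and 84.6 for Wutou, and its gluteal libraries 50.2, 115 and 53.8 and 87.9, 81.4 and 27.03. The extremes were the same libraries as for HSPB7. HSPB2, which binds the myotonic dystrophy kinase, ran from 12.7 to 44.5 FPKM, and both ends lay in one group, Wutou gluteal 1 and Wutou gluteal 2. HSPB6, or HSP20, ran from 6.38 in Wutou gluteal 1 to 49.4 in Sanfen longissimus 2. HSPB3, the partner of HSPB2 in a muscle-specific complex, had a mean of 3.61 FPKM and ran from 0.351 in Sanfen longissimus 3 to 8.53 in Wutou longissimus 3. In the RefSeq annotation HSPB2 overlaps its neighbour CRYAB, so fragments of these 2 genes may have been divided between them in ways that the sources used here do not describe.

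**Figure D2:**
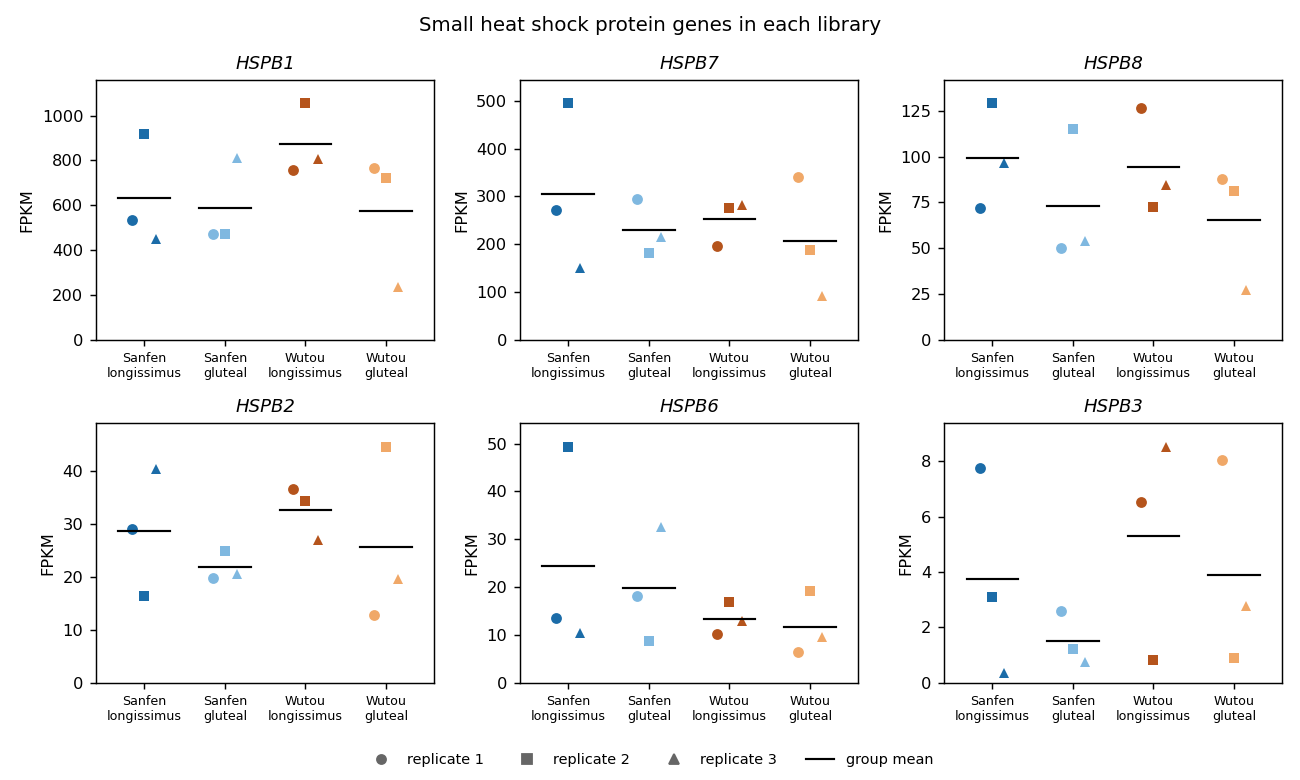
FPKM of the 6 tested small heat shock protein genes in each library (colour for the group, circle, square and triangle for replicates 1 to 3, black line for the group mean; each panel has its own axis from 0). Replicates of a group differ by as much as the groups do, and Wutou gluteal 3 is the lowest library in the HSPB1, HSPB7 and HSPB8 panels.

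Between muscles, all 6 tested small heat shock proteins had a lower fitted level in gluteal than in longissimus muscle in both strains, but none passed the test. On the log2(FPKM + 1) scale, which holds for every difference given here, their median difference was -0.29 in Sanfen and -0.49 in Wutou, where the medians over all 12408 loci were 0.08 and 0.05. Fitted differences above 0 made up 67.6% of all loci in Sanfen and 58.6% in Wutou, and 51.3% and 49.7% after median-of-ratios rescaling, under which all 6 small heat shock proteins stayed lower in both strains. HSPB8 had the smallest p of the class in Sanfen and HSPB1 in Wutou. The HSPB8 difference was -0.50 (SE 0.46) in Sanfen and -0.66 (SE 0.46) in Wutou, with limma adjusted p of 1 and 0.912. HSPB1 differed by -0.77 (SE 0.45, limma adjusted p = 0.884) in Wutou and by -0.09 (SE 0.45, adjusted p = 1) in Sanfen.

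Single libraries carried much of this. Without Sanfen longissimus 2 only 3 of the 6 small heat shock proteins were lower in Sanfen gluteal muscle, with a median of -0.07. Leaving out Wutou gluteal 3 left 5 of 6 lower in Wutou, with a median of -0.21 in place of -0.49. Sanfen longissimus 2 also had high slow fibre markers. Their mean deviation from the mean of the 12 libraries was 0.74 on the log2 scale over the 15 tested markers. Its fast fibre markers were low (-0.82 over 11) and its immediate early genes high (0.65 over 18). These means take exact 0s as listed. Among the immediate early genes, JUN was at 0 in 8 libraries, IER2 in 7 and JUND in 6. Of the fast fibre list, TNNT3 was at 0 in 3 libraries and PVALB in 2. In Wutou gluteal 3 the slow fibre list stood at -0.60. Sanfen gluteal 1 had the highest slow fibre list, at 0.97, and its small heat shock proteins stood at -0.12. The slow fibre list held 15 of 17 genes above the filter; its summed level ran from 4026 to 7815 FPKM in Sanfen longissimus, 4819 to 10257 in Sanfen gluteal, 4214 to 6848 in Wutou longissimus and 3664 to 4539 in Wutou gluteal muscle. The fast fibre list, with 11 of 15 genes, summed to 7239 to 19048, 10545 to 18218, 20541 to 21831 and 13839 to 20769 FPKM in the same groups. No locus carried the name of the myosin heavy chains MYH1, MYH2, MYH4 and MYH7 alone, nor that of MYBPC2 or MYL6B. These genes of the lists were therefore not used. The part of fibre type in the small heat shock protein levels was not tested.

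CRYAB, or alpha-B crystallin, belongs to the same protein family but is named outside the rule. It was the most abundant of all chaperones examined, with a mean of 1578 FPKM, and its longissimus libraries held 975, 2604 and 1525 for Sanfen and 1866, 2202 and 1170.0 for Wutou. The gluteal libraries held 1703, 1217 and 1228 for Sanfen and 2017, 1969 and 456 for Wutou. Its highest and lowest libraries were those of HSPB7 and HSPB8, and its muscle difference averaged over strains was -0.34 (SE 0.38, limma adjusted p = 0.903).

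Among the HSP70 genes, HSPA8 (HSC70), the constitutive cytosolic form, was the most abundant. In longissimus muscle it stood at 232, 291 and 396 FPKM for Sanfen and 531, 328 and 375 for Wutou, in gluteal muscle at 336, 193 and 385 and 534, 397 and 253. The groups overlapped, and the difference of Wutou from Sanfen was 0.43 (SE 0.36, limma adjusted p = 0.873) in longissimus and 0.37 (SE 0.36, adjusted p = 0.969) in gluteal muscle. HSPA9 (mortalin), the HSP70 of the mitochondrial matrix, was among the steadiest members, with 28.1, 27.8 and 30.2 FPKM in the back and 47.4, 34.2 and 33.5 in the hip muscle of Wutou. These 2 groups did not overlap, gluteal muscle being higher by 0.39 (SE 0.19, limma unadjusted p = 0.0647, adjusted p = 0.870). In Sanfen, HSPA9 stood at 35.4, 30.3 and 28.6 and 34.9, 30.02 and 30.2 in the 2 muscles, a difference of 0.01 (SE 0.19).

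HSPA5 (BiP), the HSP70 of the endoplasmic reticulum, ran from 9.33 FPKM in Wutou longissimus 2 to 23.8 in Wutou gluteal 1 around a median of 13.8. HSPA4, a nucleotide exchange factor related to HSP110, stayed within 3.902 to 7.89 FPKM. HSPA2, known for its role in sperm formation, was listed at 0 in Sanfen longissimus 2 and Sanfen gluteal 1 and at 4.96 to 18.8 FPKM in the other 10 libraries. The other tested members of the class, HSPA12B, HSPA13 and HSPA14, had means of 2.49, 1.32 and 1.89 FPKM, and the HSPA14 locus is merged with a second reference gene.

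Among genes known as heat-inducible, HSPA6, the HSPA1B locus and HSPH1 had libraries several times apart within some groups, but not all: in Sanfen longissimus muscle the HSPA1B locus stayed within 1.42 to 2.32 and HSPH1 within 0.686 to 1.08 FPKM. HSPA6, an HSP70 that is nearly silent in unstressed human cells, was listed in longissimus muscle at 12.5, 4.14 and 25.3 FPKM for Sanfen and 24.2, 0 and 0 for Wutou. Its gluteal values were 6.08, 0.704 and 61.95 for Sanfen and 56.4, 0.788 and 0 for Wutou. Libraries of 1 group lay many times apart, and 3 Wutou libraries were listed at 0. An exact 0 in a table without counts can be a failed estimate: the immediate early gene JUN, for example, was listed at 0 in 8 libraries and at up to 22.2 FPKM in the others. Whether the 0s of HSPA6 and HSPA2 are levels therefore cannot be told, and values computed from them below take them as listed. No comparison of HSPA6 passed the test. The largest fitted difference was -2.06 (SE 1.72, limma adjusted p = 0.873) for Wutou against Sanfen in longissimus muscle.

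HSPA1B, the classical stress-inducible HSP70, is named by a LOC identifier in the deposited table, so its locus, merged with a second LOC gene, falls outside the naming rule. Its longissimus libraries held 1.42, 2.32 and 1.73 FPKM for Sanfen and 98.8, 7.37 and 2.29 for Wutou, and its gluteal libraries 0.372, 0.165 and 1.71 and 12.3, 0.677 and 27.01. The 6 Sanfen libraries were all at or below 2.32 FPKM, while 4 Wutou libraries were at 7.37 or more. Wutou was higher by 2.36 averaged over muscles (SE 0.90, limma unadjusted p = 0.0236, adjusted p = 0.793), and Wutou gluteal 2, at 0.677, was below 4 of the Sanfen libraries. Genes of the HSPA1 group are near-identical copies, and the sources used here do not say how fragments shared between copies of HSP70 genes, HSPA6 included, were counted.

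HSPH1, or HSP105, the inducible exchange factor, stood in longissimus muscle at 0.686, 0.883 and 1.08 FPKM for Sanfen and 9.23, 1.05 and 1.29 for Wutou, and in gluteal muscle at 1.205, 0.398 and 1.87 and 2.63, 1.05 and 4.801. Its 3 highest libraries, Wutou longissimus 1, Wutou gluteal 3 and Wutou gluteal 1, were also the 3 highest for the HSPA1B locus. The strain difference of HSPH1 averaged over muscles was 0.86 (SE 0.43, limma adjusted p = 0.824). DNAJB1 (HSP40), the inducible partner of HSP70, did not pass the filter; it was highest in Wutou gluteal 3 (2.35 FPKM) and Sanfen gluteal 3 (1.61). Sanfen gluteal 3 was the highest library for HSPA6, but only rank 8 of 12 for the HSPA1B locus. Wutou gluteal 3 was listed at 0 for HSPA6, so the order of libraries was not shared by all of these genes.

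**Figure D3:**
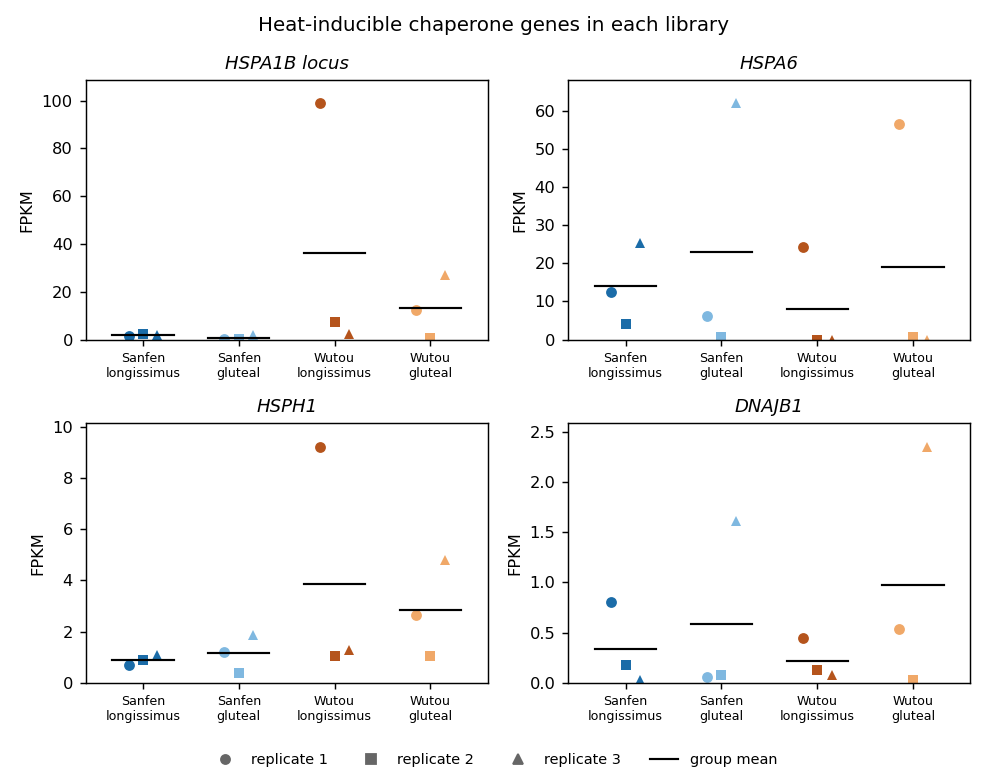
FPKM of the HSPA1B locus, HSPA6, HSPH1 and DNAJB1 in each library (colour for the group, circle, square and triangle for replicates 1 to 3, black line for the group mean; each panel has its own axis from 0). Most group means lie between 1 high library and 1 or 2 low ones; Wutou longissimus 1 stands apart at 98.8 FPKM for the HSPA1B locus and 9.23 for HSPH1.

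HSP90AB1, the constitutive cytosolic HSP90, which holds signalling proteins and myosin in folding intermediates, was among the even members. Longissimus muscle held 53.3, 65.3 and 62.2 FPKM for Sanfen and 53.3, 50.6 and 56.4 for Wutou, gluteal muscle 84.1, 48.4 and 52.8 and 58.2, 60.3 and 42.95. Sanfen gluteal 1 was the highest library and Wutou gluteal 3 the lowest, and the muscles differed by 0.00 in both strains (SE 0.24). The inducible form HSP90AA1 lies in a merged locus outside the naming rule and ran from 13.9 FPKM in Sanfen longissimus 2 to 55.4 in Wutou gluteal 1. HSP90B1 of the endoplasmic reticulum ran from 4.55 to 17.7 FPKM and the mitochondrial form TRAP1 from 11.9 to 19.99, also outside the rule. HSPD1, the HSP60 chaperonin of mitochondria, held 6.16, 3.14 and 5.78 FPKM in the back and 6.59, 4.46 and 7.36 in the hip muscle of Sanfen, against 6.45, 4.6999 and 4.84 and 7.49, 5.701 and 6.32 for Wutou. Replicate 2 was its lowest library in each of the 4 groups. Gluteal muscle was higher for HSPD1 by 0.26 averaged over strains (SE 0.17, limma adjusted p = 0.808).

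The 4 DNAJA genes, the general HSP70 partners, all passed the filter. DNAJA3, the mitochondrial member, was the most abundant (8.19 to 16.1 FPKM). DNAJA4 ran from 4.07 in Wutou gluteal 3 to 16.4 in Wutou gluteal 1, so that both ends lay in 1 group. DNAJA2 lay within 5.46 to 11 FPKM and DNAJA1 within 2.83 to 9.19 FPKM. No DNAJA gene had an unadjusted p under 0.05 in any of the 7 comparisons.

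In the DNAJB class, DNAJB4, a partner of HSP70 on filamin in muscle, was the most abundant. In longissimus muscle it was listed at 24.5, 7.302 and 6.84 FPKM for Sanfen and 19.6, 5.096 and 8.58 for Wutou, in gluteal muscle at 14.5, 4.62 and 8.995 and 28.5, 8.17 and 9.502. Replicate 1 was the highest library in all 4 groups. Of the 47 tested members, 4 had replicate 1 highest throughout (DNAJB4, DNAJC2, DNAJC8 and DNAJC21; 8.51%), against 4.84% of all loci. DNAJB6, a protein of the Z-disc whose mutations cause a limb-girdle muscular dystrophy, was even, with 3.42 to 6.62 FPKM. Its Wutou gluteal libraries (4.896, 3.42 and 4.599) lay below its Sanfen gluteal libraries (5.15, 5.05 and 6.62) without overlap, a difference of -0.32 (SE 0.16, limma unadjusted p = 0.0755, adjusted p = 0.963).

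DNAJB9 (ERdj4), a DNAJ protein of the endoplasmic reticulum that is induced by unfolded proteins there, had the smallest p of the members in 4 of the 7 comparisons. For Sanfen, its longissimus libraries held 3.35, 6.12 and 8.45 FPKM and its gluteal libraries 2.72, 2.07 and 1.04, with no overlap. For Wutou these were 2.29, 2.87 and 1.49 and 2.56, 1.07 and 4.05, and they overlapped. Sanfen longissimus was thus the high group, and its own libraries spread from 3.35 to 8.45. Gluteal minus longissimus in Sanfen was -1.22 (SE 0.36, limma unadjusted p = 0.00602, adjusted p = 1), and Wutou minus Sanfen in longissimus -1.07 (SE 0.36, unadjusted p = 0.0127, adjusted p = 0.854). These 2 comparisons share the Sanfen longissimus libraries. The difference between the strains in the muscle effect was 1.30 (SE 0.51, unadjusted p = 0.0274, adjusted p = 0.9998). None of these passes the threshold of 0.05 after adjustment over 12408 loci.

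DNAJB12, which sits in the membrane of the endoplasmic reticulum and faces the cytosol, showed the opposite order in Sanfen. The Sanfen libraries held 3.89, 5.103 and 4.07 FPKM in the back and 6.08, 8.52 and 6.68 in the hip muscle, again without overlap, and those of Wutou 7.49, 3.69 and 6.88 and 5.77, 5.298 and 3.85. The Sanfen difference was 0.59 (SE 0.24, limma unadjusted p = 0.0282, adjusted p = 1). The interaction of strain and muscle was -0.79 for DNAJB12 (SE 0.33, unadjusted p = 0.0359, adjusted p = 0.9998).

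The DNAJC class holds proteins that carry the J domain in otherwise unrelated frames. DNAJC4, DNAJC11, DNAJC21 and DNAJC16 were its most abundant members, with means of 4.704, 4.56, 4.44 and 3.41 FPKM. DNAJC21, which serves the assembly of the large ribosomal subunit, stood at 4.395, 2.62 and 2.74 FPKM in the back and 9.09, 6.27 and 4.69 in the hip muscle of Wutou, without overlap. For Sanfen the same muscles gave 7.61, 1.96 and 3.399 and 4.105, 2.67 and 3.74, and the longissimus libraries alone reached from below every other library to near the highest. Gluteal muscle was higher in Wutou by 0.84 (SE 0.35, limma unadjusted p = 0.0344, adjusted p = 0.870), and Wutou gluteal exceeded Sanfen gluteal muscle by 0.74 (SE 0.35, unadjusted p = 0.0554, adjusted p = 0.963).

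DNAJC11, a protein linked to the cristae of mitochondria, stood in longissimus muscle at 7.62, 3.76 and 5.78 FPKM for Sanfen and 3.18, 2.603 and 4.39 for Wutou, and in gluteal muscle at 6.35, 3.998 and 3.45 and 5.24, 4.22 and 4.18. In longissimus muscle the difference of Wutou from Sanfen was -0.59 (SE 0.25, limma unadjusted p = 0.0380, adjusted p = 0.854), although Wutou longissimus 3 lay above Sanfen longissimus 2. DNAJC4 ran from 3.58 to 7.52 and DNAJC16 from 2.43 to 4.13 FPKM. The endosomal DNAJC13 was the steadiest of the 47 members, with 3.13, 2.52 and 3.11 FPKM in the back and 3.69, 4.02 and 3.69 in the hip muscle of Wutou, which did not overlap (difference 0.30, SE 0.14, limma adjusted p = 0.870).

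**Figure D4:**
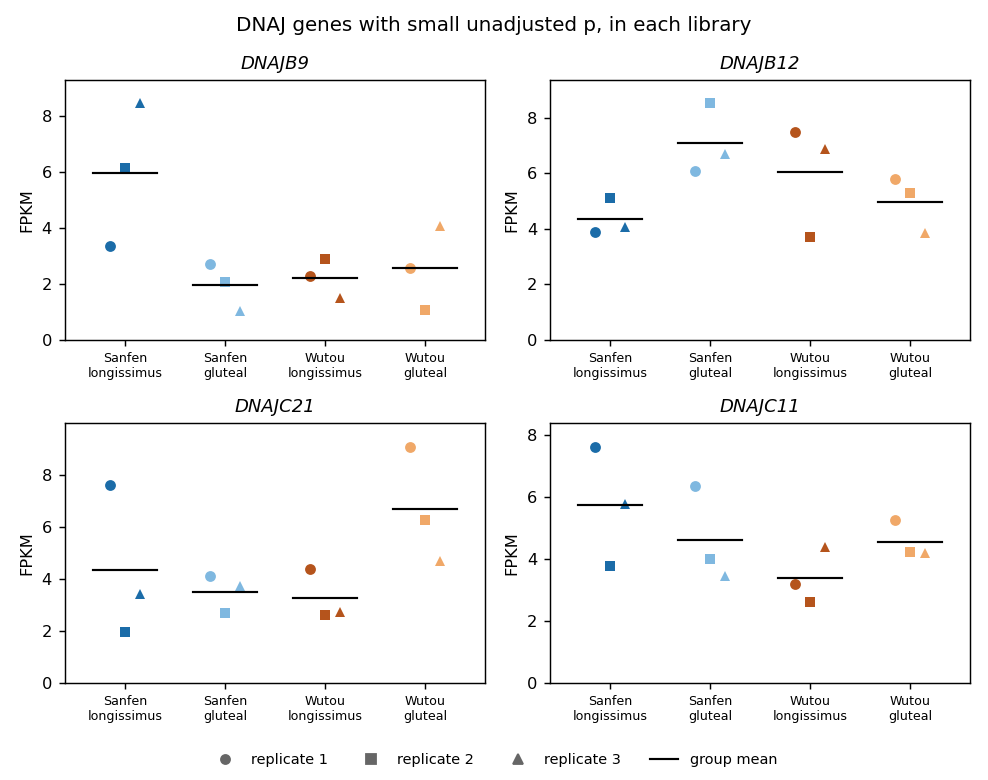
FPKM of DNAJB9, DNAJB12, DNAJC21 and DNAJC11 in each library (colour for the group, circle, square and triangle for replicates 1 to 3, black line for the group mean; each panel has its own axis from 0). DNAJB9 is high in Sanfen longissimus and DNAJC21 in Wutou gluteal muscle, and neither difference passes the test over 12408 loci.

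Over the 47 tested members, no member passed an adjusted p of 0.05 (limma, Benjamini-Hochberg over 12408 loci) in any of the 7 comparisons. The smallest adjusted p of a member was 0.753, for DNAJB9 between muscles averaged over strains. Few other loci passed either: gluteal against longissimus muscle called 0.0242% of loci in Sanfen and 0.0% in Wutou, Wutou against Sanfen 0.0161% in longissimus and 0.00806% in gluteal muscle, the averaged muscle and strain comparisons 0.0% each, and the interaction 0.00806%. A replicate block of strain and number took the loci called from 3 to 1 between muscles in Sanfen and from 1 to 2 for the interaction. Between strains within 1 muscle the block was the replicate number alone, which joins libraries of different animals and has no ground in the labels. With it the loci called went from 2 to 0 in longissimus and from 1 to 0 in gluteal muscle. No member was among the loci called with either block.

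At an unadjusted p under 0.05, each comparison held 0 to 3 of the 47 members. Between muscles in Sanfen there were 2 of 47 members, against 3.57% of loci: DNAJB12 was higher in gluteal muscle, as were 2.87% of loci, and DNAJB9 lower, as were 0.701%. In Wutou DNAJC21 alone was higher in gluteal muscle, with 5.68% of loci in either direction and 4.0% higher. Between strains in longissimus muscle, 3 members were lower in Wutou (DNAJB9, DNAJC11 and DNAJC12), with 5.52% of loci in either direction and 3.63% lower. DNAJC17 was lower in Wutou gluteal muscle, with 4.86% of loci in either direction and 4.06% lower. The averaged muscle comparison had 1 such member, DNAJB9, lower in gluteal muscle, with 6.56% of loci in either direction and 1.14% lower. The averaged strain comparison had 0 of 47, with 5.97% of loci. The interaction had 2, with 2.6% of loci: DNAJB9 above 0, as were 0.83%, and DNAJB12 below 0, as were 1.76%. With the block of strain and number, 3 members were at this p in the averaged muscle comparison (DNAJC21, HSPB8 and HSPD1, without DNAJB9). The interaction then had 3 (DNAJB9, DNAJB12 and DNAJC21) and the muscle comparison in Wutou 2 (DNAJC2 and DNAJC21). With the block of the number alone, the gluteal strain comparison had 4 (DNAJC2, DNAJC17, DNAJC21 and HSPH1). Between muscles in Sanfen and between strains in longissimus muscle the members were the same with a block. Without the block the averaged strain comparison had 1, HSPH1. DNAJC12 stabilises aromatic amino acid hydroxylases, and DNAJC17 belongs to the splicing machinery. The level of DNAJC12 was low, with a mean of 0.851 FPKM and a listed 0 in Wutou gluteal 2. Its longissimus libraries held 2.06, 1.46 and 0.801 FPKM for Sanfen and 0.0695, 0.216 and 0.604 for Wutou. A second DNAJC12 locus, with a mean of 0.708 FPKM, was not used.

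Members whose groups did not overlap were counted beside the same share of all loci, and the shares were not tested against each other. Between muscles in Sanfen these were 4 of 47 members, against 7.54% of loci: DNAJB12, DNAJC17 and HSPA13 were higher in gluteal muscle (6.27% of loci) and DNAJB9 lower (1.27%). In Wutou, DNAJC2, DNAJC13, DNAJC21 and HSPA9 were higher in gluteal muscle, 4 of 47 against 12.9% of loci in either direction and 8.7% higher. Between strains, DNAJB9 and DNAJC12 were lower in Wutou longissimus muscle, 2 of 47 against 11.8% in either direction and 7.92% lower. In gluteal muscle 5 of 47 were separated, against 10.9% of loci: DNAJC13 and DNAJC21 were higher in Wutou (2.19% of loci) and DNAJB6, DNAJB12 and DNAJC17 lower (8.68%).

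The median of the members was compared with that of all loci without a test. Their median difference between muscles was 0.03 in Sanfen, with 0.08 over all loci, and 0.07 in Wutou, with 0.05 over all loci. Under median-of-ratios rescaling the Sanfen median of the members turned to -0.09, as did the sign under quantile normalization (-0.07). Between strains the median was -0.06 in longissimus muscle, with -0.06 over all loci, and 0.05 in gluteal muscle, with -0.09 over all loci. After rescaling the gluteal median of the members was 0.14 by either method, with -0.01 (median-of-ratios) and 0.00 (quantile) over all loci. Outside the small heat shock proteins, no class with more than 2 tested members had all its fitted muscle differences on one side in either strain. HSP70 genes had 6 of 9 fitted differences above 0 in Sanfen and 7 of 9 in Wutou, and DNAJC genes had 10 and 13 of 17. After median-of-ratios rescaling these counts in Sanfen turned to 3 of 9 HSP70 and 6 of 17 DNAJC genes, and in Wutou they were 7 of 9 and 10 of 17.

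Classes differed more in how much replicates of a group varied. The SD within groups of log2(FPKM + 1), pooled over the 4 groups, had a median of 0.35 over the 47 members and of 0.27 over all 12408 loci. It was 0.66 for the 6 small heat shock proteins, 0.36 each for HSP70 and DNAJA, 0.30 for DNAJB and 0.26 for DNAJC genes. HSPD1 and HSPH1 had a median of 0.55, but were unlike, with 0.30 for HSPD1 and 0.80 for HSPH1. The lowest value was 0.13 for DNAJC13 and the highest 2.52 for HSPA6, with 0.0806% of loci above the latter. HSPA2 had 1.51 and HSPB3 1.13. The 6 small heat shock proteins lay between 0.56 and 1.13, HSPA8 at 0.46 and HSPA9 at 0.17. Low loci have small values on this scale because of the added 1, so the classes are not matched in level.

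Libraries also differed as wholes. Wutou gluteal 1 was the highest of the 12 libraries for 11 of 47 members (23.4%), where 8.60% of all loci had their highest value there, and Wutou longissimus 2 was the lowest for 10 (21.3%, with 15.7% of loci). The mean deviation of the 9 HSP70 genes was 0.65 in Wutou gluteal 1 and -0.46 in Sanfen longissimus 2, but HSPA6 alone deviated by 3.20 in the former and HSPA2, listed at 0, by -2.87 in the latter. Without these 2 genes the means were 0.28 and -0.15. Small heat shock proteins deviated by 0.61 in Sanfen longissimus 2 and by -0.85 in Wutou gluteal 3, with medians over the 6 genes of 0.65 and -0.95. In Wutou gluteal 3, HSPH1 stood at 1.13 and HSPD1 at 0.14. The class means of the 7 DNAJB and 17 DNAJC genes stayed within -0.22 to 0.25 in every library. Single genes varied more, with a within-group SD of 0.88 for DNAJB4 and 0.75 for DNAJC3. The classes also differ in the number of genes averaged.

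**Figure D5:**
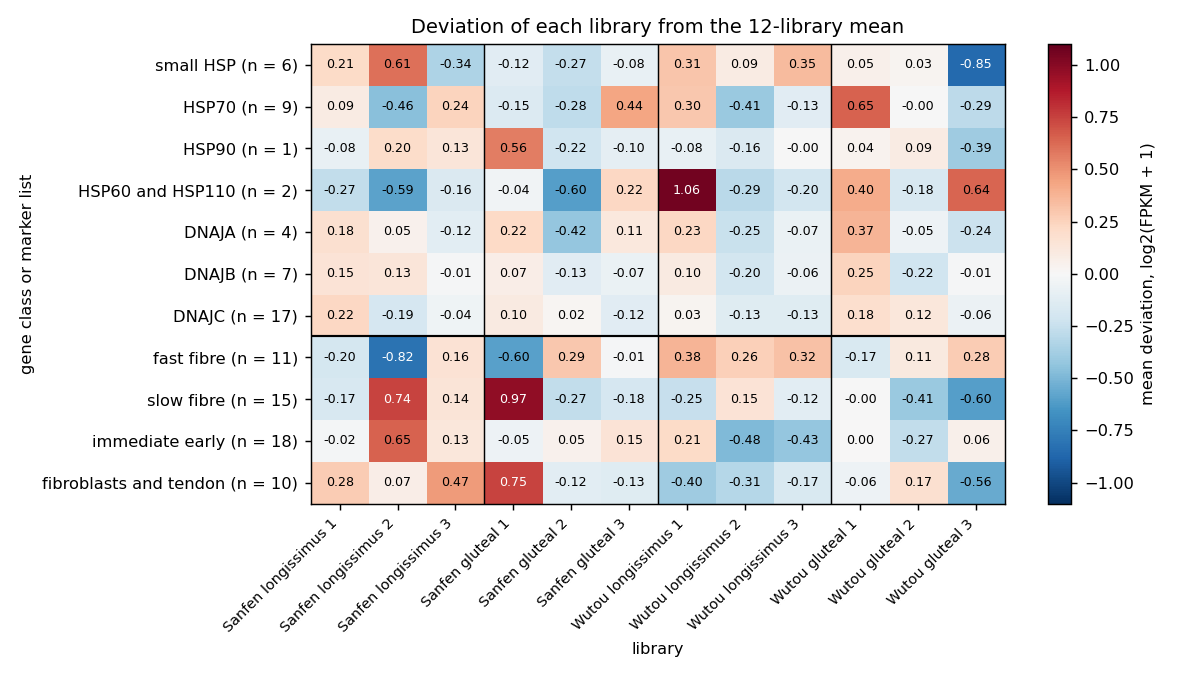
Mean deviation of each library (columns) from the mean of the 12 libraries, on the log2(FPKM + 1) scale, for 7 chaperone classes (above the black line) and 4 marker lists (below it), with n tested genes each. The small heat shock protein mean is highest in Sanfen longissimus 2 (0.61) and lowest in Wutou gluteal 3 (-0.85), while the DNAJC mean stays between -0.19 and 0.22.

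Partners and regulators outside the rule were taken from 5 lists. No gene of these lists passed the test in any comparison, in either direction. HSF1 and the cytosolic HSP70 and HSP90 partners had 24 of 31 genes tested; HSF1 itself, the heat shock factor, ran from 9.22 to 17.6 FPKM. BAG3, which links HSPB8 to HSP70, stood at 6.61, 8.18 and 5.16 FPKM in the back and 4.02, 2.12 and 5.77 in the hip muscle of Sanfen, and at 7.58, 2.95 and 3.96 and 11.02, 5.16 and 8.899 for Wutou. Its interaction of strain and muscle was 1.38 (SE 0.50, limma unadjusted p = 0.0184, adjusted p = 0.9998). BAG5, another exchange factor, was higher in gluteal muscle by 0.36 averaged over strains (SE 0.12, unadjusted p = 0.0124, adjusted p = 0.745). BAG6 and CDC37, the kinase adaptor of HSP90, were the most abundant of this list, with means of 40.7 and 36.8 FPKM.

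All 14 genes of the CCT chaperonin and prefoldin, which fold actin and tubulin, were tested. In Sanfen, 14 of 14 had a higher fitted level in gluteal muscle, with a median of 0.17, where 67.6% of all loci were above 0, and in Wutou 6 of 14 did, with a median of -0.05. After median-of-ratios rescaling 10 of 14 were above 0 in Sanfen and 6 of 14 in Wutou. The Sanfen count rests on Sanfen longissimus 2, which was low for this list at a mean deviation of -0.50: without it 6 of 14 were higher, with a median of -0.01, and with another Sanfen library left out 11 to 13 were. CCT2 and CCT3 were its most abundant members, with means of 28.5 and 24.9 FPKM, and CCT6A and PFDN5 had its smallest p (adjusted p of 0.774 and 0.9998 with limma).

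A list of myosin chaperones and other genes, with CRYAB, SYNPO2, MURC and TOR1A among them, had 7 of 10 genes tested. UNC45B, the myosin folding factor that works with HSP90, was even, at 45.6 to 66.0 FPKM. SMYD1, a muscle methyltransferase that assists myosin assembly, ran from 2.62 to 9.47 FPKM, both in Sanfen longissimus, and TOR1A, of the same list, from 0.942 to 1.73. TOR1A had the smallest p of the list. In longissimus muscle Wutou differed from Sanfen by 0.32 (SE 0.13, limma unadjusted p = 0.0295, adjusted p = 0.854).

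Chaperones and stress genes of the endoplasmic reticulum had 16 of 21 genes tested. CALR and P4HB were the most abundant, with means of 30.7 and 18.3 FPKM. PDIA6, a disulfide isomerase, differed by -0.53 in Wutou against Sanfen averaged over muscles (SE 0.18, limma unadjusted p = 0.0139, adjusted p = 0.793), and DDIT3 (CHOP), the stress transcription factor, differed by -1.09 in gluteal muscle (SE 0.45, unadjusted p = 0.0317, adjusted p = 0.963). The gluteal libraries held 6.27, 2.63 and 9.44 FPKM of DDIT3 for Sanfen and 3.15, 1.52 and 1.74 for Wutou, which overlapped.

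Mitochondrial folding factors and proteases had 12 of 13 genes tested. CLPX, the unfoldase of the matrix protease, was higher in gluteal muscle by 0.35 averaged over strains (SE 0.11, limma unadjusted p = 0.00955, adjusted p = 0.745). GRPEL1, the exchange factor of HSPA9, stood at 1.29, 1.89 and 3.04 FPKM in the back and 7.37, 2.33 and 8.25 in the hip muscle of Wutou, a difference of 1.09 (SE 0.47, unadjusted p = 0.0412, adjusted p = 0.870). Wutou gluteal 2 lay below Wutou longissimus 3, so these groups overlapped. CLPP and TIMM44 were the most abundant of the list, with means of 25.0 and 15.8 FPKM.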

How the data were processed

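The deposited table gives FPKM per locus and library, per the file headers. Per the labels' protocols, tissue was flash frozen, RNA was extracted with Trizol and libraries were made with an Illumina mRNA-seq kit and a small RNA kit; the table, which names genes, was taken as the mRNA-seq data; per the submitters' processing notes, cutadapt, Bowtie2 and TopHat2 were used, without versions. The genome build and any rescaling between libraries are not given in the sources used here.

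Members were found by gene name; 8 names had more than 1 locus. Of the 64 names, 61 matched a symbol in the RefSeq annotation of another donkey assembly, which served only for names and neighbours. FPKM were analysed as log2(FPKM + 1) with limma 3.58.1 in R 4.3.3, in 1 model over the 4 groups and 12 libraries with a trend of the variance over the level and p-values adjusted by Benjamini-Hochberg over 12408 loci at 0.05. The averaged strain comparison took the strain joined to the replicate number as random block (statmod 1.5.0, consensus correlation 0.188). FPKM are not counts, so the depth of a library is unknown and low levels have an unknown counting error; differences of low genes are understated by the added 1. The fit was tested on simulated data.

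The members, classes and gene lists were chosen with earlier results of these data known. Members named are the 4 most abundant per class, those called, and the 4 with the smallest p per comparison at 5 FPKM or more in the higher group; per list, the 2 most abundant and the 2 with the smallest p. Members below that level, and genes named for groups that do not overlap, for their library order or as related genes outside the naming rule, were chosen after their values were seen. Each library was left out in turn, and other alternatives were the replicate block, summed loci of a name, quantile normalization, median-of-ratios rescaling, a filter at 5 FPKM or none, and a pseudocount of 0.1.

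Same-numbered libraries of the 2 muscles were checked as pairs by correlating their deviations from group means. In Sanfen the correlations were 0.246, 0.110 and 0.158, each above the limit of 0.1. The main fit of the Sanfen muscle difference still did not use the numbers as pairs. In Wutou they were 0.182, 0.165 and 0.0711, the last below that limit. Libraries of different number correlated at -0.149 to -0.00083 in Sanfen and at -0.169 to 0.0126 in Wutou. In both strains these lay below every same-numbered value. Deviations from a group mean cancel out over its 3 libraries, so the 2 kinds of values are tied. The low values are thus no separate evidence of pairs. No label states this pairing, and it is read from the values. The check was made within each strain only. Whether same-numbered libraries of different strains share deviations was not tested. Differences are given from the fit without the block, except for the averaged strain comparison, whose block also paired the Wutou libraries. The SE and p of the muscle differences and of the interaction therefore take no account of this pairing. Figures were drawn with Python 3.11.15 and matplotlib 3.10.9.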

Additional observations from a re-analysis of the deposited data

How the results depend on the processing

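No member passed the adjusted threshold in any of the 7 comparisons under any alternative, so 0 members were called throughout, with the replicate block and without it. The 28 differences of members named by p were picked for their small p in these same data. They kept their direction and stayed above the threshold in all 527 alternatives run, the lowest limma adjusted p being 0.571. Many of these alternatives could not change a direction. A difference between 2 groups stays the same when a library of another group is left out, and with the replicate block. DNAJB9 falls below a filter at 5 FPKM and has no value there. The replicate block of strain and number took the loci called between muscles in Sanfen from 3 to 1 and those of the interaction from 1 to 2. With it, members at an unadjusted limma p under 0.05 went from 1 to 3 in the averaged muscle comparison. Between strains within 1 muscle the block was the number alone, which joins different animals and is not the pairing read from the values. That block took the loci called from 2 to 0 in longissimus and from 1 to 0 in gluteal muscle. Members at an unadjusted limma p under 0.05 went from 1 to 4 in gluteal muscle with it. Neither block changed a call of a member. Counts of members at an unadjusted p under 0.05 ranged from 0 to 4 over all comparisons and alternatives. In a check added after the data were seen, the 6 small heat shock proteins were counted under each setting: all 6 were lower in gluteal muscle in both strains under both rescalings, and with 1 library left out 3 to 6 were lower in Sanfen and 5 to 6 in Wutou. With 3 libraries a group and no read counts, differences below the spread between libraries could not be detected. Some above it were not called either: DNAJB9 differed by -1.22 between muscles in Sanfen, against a within-group SD of 0.51.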
